A study of Homo sapiens with 9 samples.

Results

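Genes that answer to mechanical tension through the transcription factor SRF and through the coactivators YAP1 and WWTR1 (TAZ) were examined in lamin-depleted colorectal cancer cells. The set was fixed by name, with earlier results of these data known, and comprised 10 genes: CTGF (now CCN2), CYR61 (CCN1), ANKRD1, AMOTL2, YAP1, WWTR1, SRF, MKL1 (MRTFA), VCL and FHL2. They were measured by 19 of the 50238 probes on the array and are 10 of its 31033 gene names. RNA came from DLD1, a human colorectal cancer cell line with a near-diploid and stable karyotype, and was hybridized to single-color Agilent arrays, 1 array per culture. Cultures were 3 untreated controls without siRNA (Control), 3 transfected for 48 h with 100 nM siRNA against Lamin A/C (Lamin A/C Kd), and 3 likewise transfected against Lamin B2 (Lamin B2 Kd). The controls were not transfected and no array came from a control siRNA, so an effect of transfection cannot be told apart from an effect of lamin depletion in either comparison with Control.

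SRF is a transcription factor that binds CArG boxes in the promoters of cytoskeletal and immediate-early genes. Its coactivator MKL1 is held in the cytoplasm by monomeric actin and enters the nucleus when actin polymerizes. YAP1 and WWTR1 are coactivators of the TEAD factors, restrained by the Hippo kinases LATS1 and LATS2 and released when cells spread on stiff substrates. Both pathways read the tension of the actin cytoskeleton, which is coupled to the lamina through the nuclear envelope. CTGF, CYR61, ANKRD1 and AMOTL2 are widely used readouts of YAP1 and WWTR1, and CTGF, CYR61, VCL, FHL2 and SRF itself are also SRF targets.

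The upstream sequences of these genes were searched for the motifs of both pathways. The 250 bases before each annotated transcription start were taken from RefSeq (GRCh38.p14), which matched 9 of the 10 genes and gave 17 windows. CYR61 had no window and was not searched. The TEAD motif GGAATG, searched on both strands (CATTCC on the other), was found in 6 of the 17 windows, 1 window each for 6 genes, and in 11.9% of 35116 windows of all genes. A CArG box, which reads the same on both strands, was found in 4 of the 17, which belong to 2 genes and overlap in part, and in 1.16% of all windows. No window held both motifs. CTGF is shown for its 3 TEAD motifs and ANKRD1 for its 2, while SRF is shown for its 2 CArG boxes and FHL2 for 1. The windows are chr6:131951373-131951622 (minus strand) for CTGF, chr10:90921088-90921337 (minus) for ANKRD1, chr6:43171019-43171268 (plus) for SRF and chr2:105399052-105399301 (minus) for FHL2. Each is written 5′ to 3′ and ends at the base before the start, with the motifs in capitals.
CTGF: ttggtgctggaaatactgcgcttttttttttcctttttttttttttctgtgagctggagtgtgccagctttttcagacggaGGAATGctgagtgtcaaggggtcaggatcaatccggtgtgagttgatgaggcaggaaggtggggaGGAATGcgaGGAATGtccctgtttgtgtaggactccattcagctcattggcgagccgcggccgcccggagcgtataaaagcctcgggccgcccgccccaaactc
ANKRD1: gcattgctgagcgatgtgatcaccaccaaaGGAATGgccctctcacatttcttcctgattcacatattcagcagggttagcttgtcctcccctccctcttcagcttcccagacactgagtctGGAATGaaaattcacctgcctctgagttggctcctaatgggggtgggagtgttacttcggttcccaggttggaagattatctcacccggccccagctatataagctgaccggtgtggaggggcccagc
SRF: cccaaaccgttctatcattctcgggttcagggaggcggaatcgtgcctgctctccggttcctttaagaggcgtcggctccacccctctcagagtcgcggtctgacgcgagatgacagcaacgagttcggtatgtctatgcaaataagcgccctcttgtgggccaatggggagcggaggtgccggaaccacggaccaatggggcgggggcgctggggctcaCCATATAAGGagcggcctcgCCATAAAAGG
FHL2: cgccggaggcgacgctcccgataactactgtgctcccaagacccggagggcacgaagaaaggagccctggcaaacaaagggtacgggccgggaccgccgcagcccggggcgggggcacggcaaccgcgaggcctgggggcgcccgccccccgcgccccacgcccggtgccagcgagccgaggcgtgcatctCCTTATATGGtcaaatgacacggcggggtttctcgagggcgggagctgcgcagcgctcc
A match to these letters is a description of the sequence and not of binding.

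The arrays carried the labelled knockdowns. LMNA was at 7.04% of Control upon Lamin A/C depletion and LMNB2 at 20.0% upon Lamin B2 depletion (adjusted p = 0.000225 and 0.000523). Of 9 epithelial and colon markers, 8 were well above background on all 9 arrays, against 1 of 7 fibroblast markers. Lamin B2 Kd replicate 3 was alone on a slide of its own and stood apart, at a root mean square difference of 0.58 on the log2 scale from the other arrays of its group, against 0.22 to 0.39 for the 8 arrays of the first slide. The fold changes of the genes in Lamin B2 Kd and the list counts are therefore also given without it, and the part of the slide in its values was not tested. Upon Lamin B2 depletion the median change of all 22123 genes tested was −0.14 on the log2 scale, and it was 0.06 with a shift by the 75th percentile in place of the 50th. Upon Lamin A/C depletion the same medians were −0.04 and 0.04 over 21868 genes.

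In Lamin A/C Kd the secreted matrix proteins CYR61 and CTGF and the LIM-domain cofactor FHL2 fell, and no gene of the set rose. CYR61 fell to 49.3% of Control, CTGF to 63.5% and FHL2 to 70.1%, with adjusted p under 0.05 for each. These were 3 of the 9 genes that could be tested, where 5.78% of all genes fell by that rule. At a fold change of at least 2 with an unadjusted p under 0.05, the criteria of the study, CYR61 was called lower, or 1 of 9, where 1.28% of all genes were lower and 2.2% were called in either direction. The log2 fold change was below 0 for 8 of the 9 (55.5% of all genes), all except YAP1, and its median over the 9 was −0.47 (SD of the array medians 0.07). At an unadjusted p under 0.05, AMOTL2 and WWTR1 were also lower, which made 5 of 9 where 14.7% of all genes were. All 3 Lamin A/C Kd arrays were below all 3 Control arrays for 7 of the 9, where this held for 25.2% of all genes. ANKRD1 was not tested, since its probe was well above background on 1 of 9 arrays.

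CYR61, an immediate-early gene for a matricellular protein, showed the largest change in Lamin A/C Kd among the 9 tested genes. On its brightest probe (P46429) the log2 signal, relative to the median of the array, was 7.05, 7.08 and 7.20 in Control, 6.22, 5.79 and 6.26 in Lamin A/C Kd, and 7.16, 6.85 and 6.56 in Lamin B2 Kd. All Lamin A/C Kd arrays were below every Control and every Lamin B2 Kd array, while Lamin B2 Kd replicate 1 lay among the Control arrays. The log2 fold change in Lamin A/C Kd was −1.02 (SE 0.18, 95% interval −1.43 to −0.61, adjusted p = 0.0108). The other probes of CYR61 gave −0.99 (P46426) and −1.13 (P370946), with adjusted p of 0.0123 and 0.00776. The 3 probes carry the accession of 1 transcript and are not independent. The fold on P46429 was 2.03, just past the criterion of 2, and it was under 2 when Control replicate 3 (log2 fold change −0.98) or the second Lamin A/C Kd array (−0.87) was left out. Without Control replicate 3 its adjusted p was 0.0563, and it was between 0.00349 and 0.0456 without any other array.

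CTGF, which encodes a secreted growth factor-binding protein of the same CCN family, was measured by 1 probe. Its log2 signal was 3.01, 2.87 and 3.02 in Control, 2.41, 2.12 and 2.40 in Lamin A/C Kd, and 2.80, 2.32 and 2.45 in Lamin B2 Kd. Every array of either knockdown was below every Control array, and the knockdowns overlapped each other. The log2 fold change was −0.65 (SE 0.15, 95% interval −0.996 to −0.31, adjusted p = 0.0297) in Lamin A/C Kd. Upon Lamin B2 depletion it was −0.44 (SE 0.15, 95% interval −0.79 to −0.10), with an adjusted p of 0.129 and an unadjusted limma p of 0.0165.

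AMOTL2, an angiomotin-like protein that binds YAP1 and is itself induced by it, had a log2 signal of 7.70, 7.77 and 7.81 in Control, 7.35, 7.11 and 7.43 in Lamin A/C Kd, and 7.87, 7.71 and 7.03 in Lamin B2 Kd. The Lamin A/C Kd arrays lay below Control without overlap, and in Lamin B2 Kd replicate 1 lay above Control, replicate 2 among the Control arrays and replicate 3 below all of them. The log2 fold change in Lamin A/C Kd was −0.47 (95% interval −0.93 to 0.00) with an adjusted p of 0.207. Without Lamin B2 Kd replicate 3, which enters the estimate of the spread, that adjusted p was 0.0195 at the same fold change. ANKRD1, an ankyrin-repeat protein of muscle and of stretched cells, was near background. Its log2 signal was −1.66, −2.20 and −2.35 in Control, −4.08, −3.89 and −2.45 in Lamin A/C Kd, and −2.40, −2.22 and −3.80 in Lamin B2 Kd. The probe was not well above background on any knockdown array and on 1 Control array only, so no fold change is given.

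**Figure D1:**
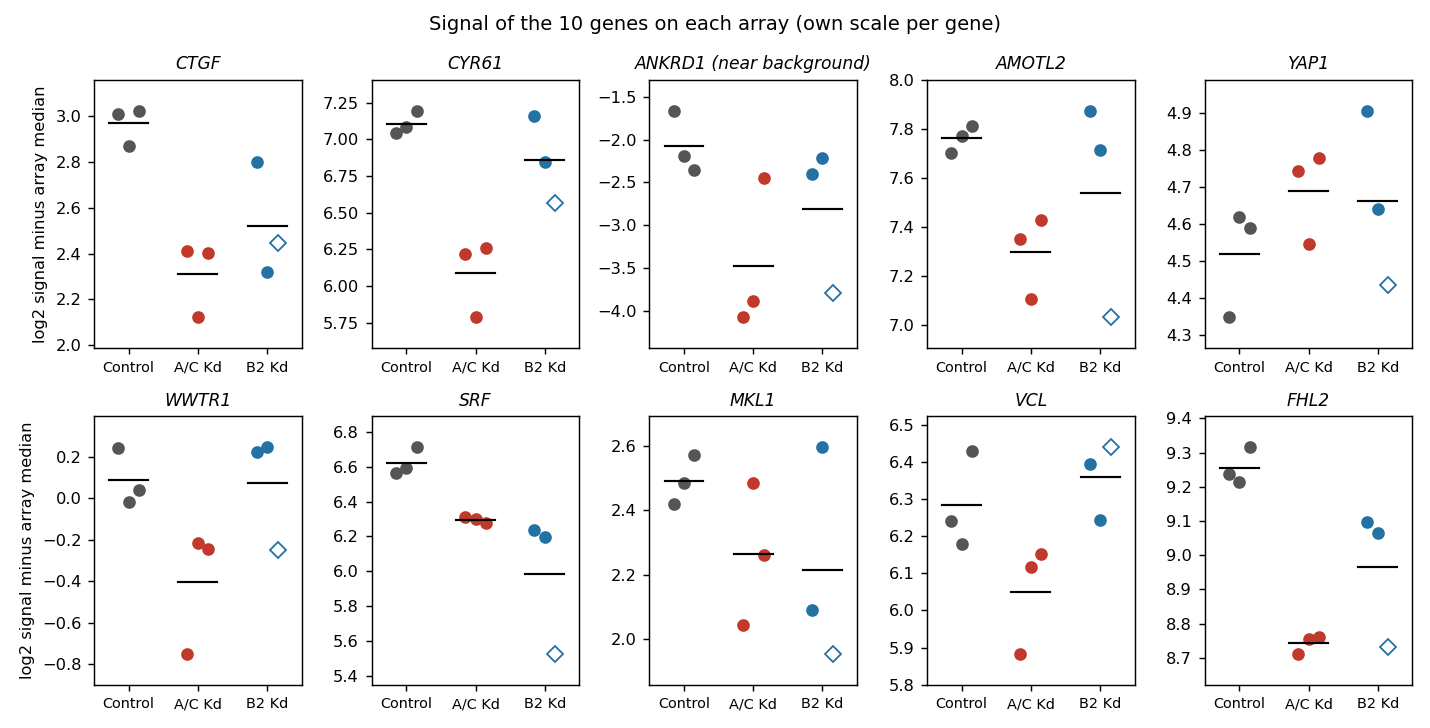
Log2 signal minus the array median (vertical axis, own scale in each panel) of the 10 genes on the 9 arrays, with 1 point per array, a bar at the group mean and an open diamond for Lamin B2 Kd replicate 3; WWTR1, SRF, CYR61, YAP1 and VCL are shown by their brightest probe. The Lamin A/C Kd points lie below all Control points for CTGF, CYR61, AMOTL2, WWTR1, SRF, VCL and FHL2, and ANKRD1 was well above background on 1 array only.

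Neither coactivator passed the test in either knockdown. YAP1 had a log2 signal of 4.35, 4.62 and 4.59 in Control, 4.74, 4.55 and 4.78 in Lamin A/C Kd, and 4.91, 4.64 and 4.44 in Lamin B2 Kd on its brightest probe. The groups overlapped, and the log2 fold change was 0.17 (95% interval −0.17 to 0.51, adjusted p = 0.56) upon Lamin A/C depletion and 0.14 (−0.20 to 0.48, adjusted p = 0.561) upon Lamin B2 depletion. A second, dimmer YAP1 probe (P273679) spread widely within every group, with SDs of 1.22, 1.09 and 1.22, and its change did not pass the test.

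WWTR1 was dim, and its probes disagreed. The brightest probe (P29769) read 0.24, −0.02 and 0.04 in Control, −0.75, −0.22 and −0.25 in Lamin A/C Kd, and 0.23, 0.25 and −0.25 in Lamin B2 Kd. The Lamin A/C Kd arrays were all below Control, at a log2 fold change of −0.49 (95% interval −0.92 to −0.06, adjusted p = 0.149). The other tested probe (P944383), which carries another accession, gave 0.38 (adjusted p = 0.417) upon Lamin A/C depletion and 0.76 (adjusted p = 0.125) upon Lamin B2 depletion. There all Lamin B2 Kd arrays lay above all Control arrays, whereas P29769 gave −0.01 in Lamin B2 Kd. The mean over both probes moved WWTR1 to −0.05 (adjusted p = 0.901) upon Lamin A/C depletion and to 0.37 (adjusted p = 0.197) upon Lamin B2 depletion. The remaining pair of WWTR1 probes was not tested for want of signal.

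SRF was measured by 3 probes. On the brightest (P346277) the log2 signal was 6.57, 6.59 and 6.71 in Control, 6.31, 6.30 and 6.28 in Lamin A/C Kd, and 6.24, 6.20 and 5.53 in Lamin B2 Kd. The groups did not overlap, with every Lamin B2 Kd array below every Lamin A/C Kd array and these below every Control array. Log2 fold changes were −0.33 (95% interval −0.74 to 0.08, adjusted p = 0.316) upon Lamin A/C depletion and −0.64 (−1.05 to −0.23, adjusted p = 0.0854) upon Lamin B2 depletion. When Lamin B2 Kd replicate 3 was left out, the SRF change passed the test in both knockdowns, at −0.33 (adjusted p = 0.0231) for Lamin A/C and −0.41 (SE 0.09, adjusted p = 0.0451) for Lamin B2. The next probe (P337657) pointed the same way, at −0.70 and −0.80 with adjusted p of 0.127 and 0.112. The dimmest (P111020) did not, at −0.01 and 0.44 (adjusted p = 0.98 and 0.184), although the 3 probes carry the accession of 1 transcript.

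MKL1, the actin-sensing coactivator of SRF, had a log2 signal of 2.42, 2.48 and 2.57 in Control, 2.04, 2.49 and 2.26 in Lamin A/C Kd, and 2.09, 2.60 and 1.95 in Lamin B2 Kd. Replicate 2 of Lamin A/C Kd lay among the Control arrays and replicate 2 of Lamin B2 Kd just above them, and the other knockdown arrays lay below. The log2 fold changes of −0.23 (95% interval −0.64 to 0.18) and −0.28 (−0.69 to 0.14) did not pass the test (adjusted p = 0.517 and 0.367). Arrays measure transcript and not the location of the protein, through which MKL1 and YAP1 are regulated.

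FHL2, a LIM-only protein that binds SRF and is induced through it, was measured by 1 probe. It read 9.24, 9.22 and 9.32 in Control, 8.71, 8.76 and 8.76 in Lamin A/C Kd, and 9.10, 9.07 and 8.73 in Lamin B2 Kd. Both knockdowns were below Control on every array, and in Lamin B2 Kd replicate 3 reached the level of Lamin A/C Kd while the other arrays lay between. FHL2 changed by −0.51 (SE 0.12, 95% interval −0.79 to −0.23, adjusted p = 0.0351) upon Lamin A/C depletion, and its log2 fold change was −0.29 (SE 0.12, −0.57 to −0.01, adjusted p = 0.199) in Lamin B2 Kd. The latter was −0.17 (−0.37 to 0.02, adjusted p = 0.295) when Lamin B2 Kd replicate 3 was left out and −0.095 (adjusted p = 0.425) with the 75th percentile shift.

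VCL encodes vinculin, which links integrin adhesions to actin. Its brightest probe (P47182) had a log2 signal of 6.24, 6.18 and 6.43 in Control, 5.88, 6.12 and 6.15 in Lamin A/C Kd, and 6.40, 6.24 and 6.44 in Lamin B2 Kd. The other probe (P202280) read 4.59, 4.53 and 4.76 in Control, 4.13, 4.19 and 4.25 in Lamin A/C Kd, and 4.52, 4.58 and 4.41 in Lamin B2 Kd. On both probes the Lamin A/C Kd arrays were below all other arrays, and Lamin B2 Kd overlapped Control. The log2 fold change in Lamin A/C Kd was −0.23 (95% interval −0.52 to 0.05, adjusted p = 0.309) on P47182 and −0.44 (−0.69 to −0.18, adjusted p = 0.0443) on P202280, so the call depended on the probe. Upon Lamin B2 depletion the VCL probes gave 0.08 and −0.12, with adjusted p of 0.719 and 0.511.

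**Figure D2:**
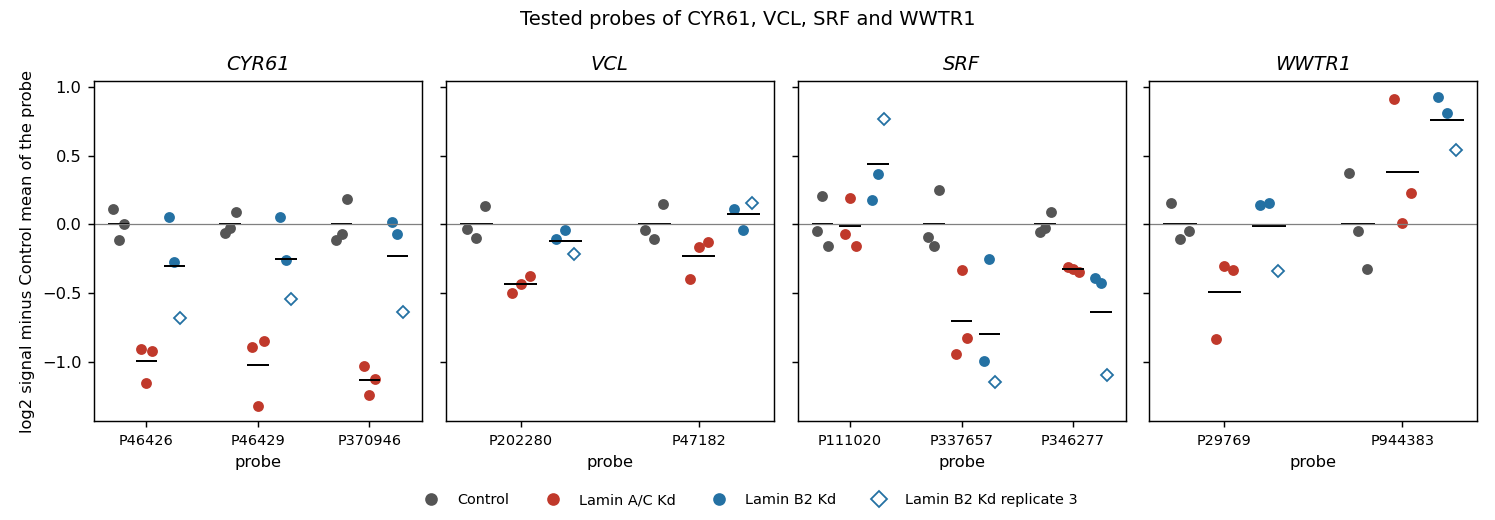
Log2 signal of each tested probe of CYR61, VCL, SRF and WWTR1 minus the Control mean of that probe (vertical axis, log2 units), with 1 point per array, bars at group means and an open diamond for Lamin B2 Kd replicate 3. The 3 CYR61 probes show the same fall near −1 in Lamin A/C Kd, whereas the SRF and WWTR1 probes differ in direction.

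The leave-one-out values set how firmly the Lamin A/C Kd calls can be read. With any 1 Control or Lamin A/C Kd array left out, 1.68 to 3.74% of all genes fell, against 5.78% with all arrays kept. CTGF (adjusted p 0.0624 to 0.117) and FHL2 (0.0855 to 0.137) did not pass the test in these fits, and either 1 or 0 genes of the set did. Without Lamin B2 Kd replicate 3 there were 5 (CYR61, CTGF, FHL2, AMOTL2 and SRF), where 13.5% of all genes fell by the same rule. The fold changes kept their sign in each of these fits, with CTGF between −0.70 and −0.56 and FHL2 between −0.53 and −0.48.

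In Lamin B2 Kd no gene of the set was called at 2-fold, where 2.03% of all genes were, and none had an adjusted p under 0.05 by limma, where 3.92% of all genes fell and 0.466% rose. At an unadjusted p under 0.05, CTGF, SRF and FHL2 were lower, 3 of 9 against 20.1% of all genes, and none was higher, as 4.39% of all genes were. The same 3 were below Control on every array, 3 of 9 against 27.3% of all genes. The median change of the 9 was −0.25 (SD of the array medians 0.31), and 7 of 9 were below 0, against 66.7% of all genes. This median rested on 1 array. The median of the 9 genes relative to the Control mean was 0.05 in replicate 1, −0.05 in replicate 2 and −0.52 in replicate 3, and without replicate 3 the median change was −0.10, with 5 of 9 below 0 against 61.5% of all genes. It also depended on the scaling. With the 75th percentile shift the median of the 9 was −0.055 and 6 of 9 were below 0, against 42.6% of all genes, and with quantile normalization it was −0.02 and 7 of 9, against 49.6%. Among the Lamin A/C Kd arrays the corresponding medians were −0.45, −0.32 and −0.33, and 8 of 9 genes were below the Control mean on each array. Without Lamin B2 Kd replicate 3, SRF (−0.41) was the 1 gene of the set with an adjusted p under 0.05, where 4.02% of all genes fell. The other log2 fold changes were then −0.41 for CTGF (adjusted p = 0.207), −0.17 for FHL2, −0.15 for MKL1, −0.10 for CYR61, 0.03 for AMOTL2, 0.04 for VCL, 0.15 for WWTR1 and 0.26 for YAP1 (adjusted p = 0.34).

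**Figure D3:**
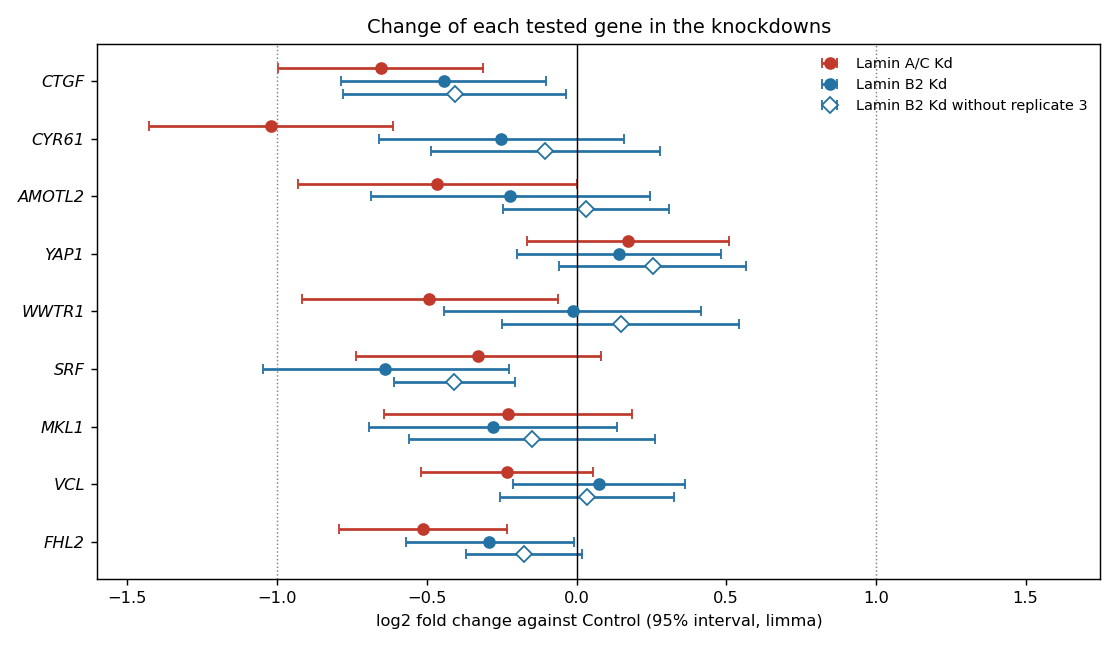
Log2 fold change against Control with its 95% interval (limma) of the 9 tested genes, for Lamin A/C Kd (red), Lamin B2 Kd (blue) and Lamin B2 Kd without replicate 3 (open diamonds); dotted lines mark a fold of 2. The intervals of CTGF, CYR61, WWTR1 and FHL2 lie below 0 in Lamin A/C Kd, and that of AMOTL2 just does, with an upper end that rounds to 0.00. The Lamin B2 Kd values of CYR61, AMOTL2 and SRF move toward 0 when replicate 3 is left out.

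The knockdowns were also compared directly. CYR61 was lower in Lamin A/C Kd than in Lamin B2 Kd by a log2 difference of −0.77 (SE 0.18, 95% interval −1.18 to −0.36, adjusted p = 0.0207), and its other probes gave −0.69 and −0.90 with adjusted p of 0.0324 and 0.0109. It was the 1 gene of 9 with an adjusted p under 0.05, where 4.53% of all genes were lower and 11.2% higher by this rule, and none of the set differed by 2-fold, where 4.21% of all genes did. Without Lamin A/C Kd replicate 2 its adjusted p was 0.0776 and without Lamin B2 Kd replicate 1 it was 0.0561. VCL (−0.31, adjusted p = 0.139) and WWTR1 (−0.48, adjusted p = 0.127) were lower in Lamin A/C Kd at an unadjusted p under 0.05, as 9.9% of all genes were. Without Lamin B2 Kd replicate 3, FHL2 (−0.34, adjusted p = 0.0281), AMOTL2 (−0.50, adjusted p = 0.0245) and WWTR1 (−0.64, adjusted p = 0.0366) also passed the test. In that fit 8.17% of all genes were lower and 11% higher, against 4.53% and 11.2% with all arrays. CTGF differed by −0.21 (95% interval −0.55 to 0.13) and SRF by 0.31 (−0.10 to 0.72), with adjusted p of 0.393 and 0.292. Both comparisons with Control share the same 3 arrays, so a likeness between them is not a result.

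The wider pathways were followed in 5 lists of 7 to 35 tested genes each, and without the 10 genes they held 88 genes. The counts of single lists given further below include genes of the set, so CYR61, CTGF and FHL2 recur in them. In Lamin A/C Kd 16 of the 88 fell and 3 rose at an adjusted p under 0.05, where 5.78% of all genes fell and 3.15% rose. With any 1 Control or Lamin A/C Kd array left out, 6 to 9 of the 88 fell and none rose, where 1.68 to 3.74% of all genes fell and 0.964 to 1.36% rose. When Lamin B2 Kd replicate 3 was left out, 33 fell and 4 rose, where 13.5% and 7.43% of all genes did, so the counts of the lists are to be read against the share of the same fit. In Lamin B2 Kd NF2 and IGFBP3 fell, 2 of the 88, and none rose, where 3.92% of all genes fell and 0.466% rose. Without any 1 Control array neither passed the test, and IGFBP3 did not without any 1 Lamin A/C Kd array either. When Lamin B2 Kd replicate 3 was left out, 2 fell and 1 rose, where 4.02% and 0.714% of all genes did. The median change of the 88 was −0.22 upon Lamin A/C depletion and −0.13 upon Lamin B2 depletion, beside −0.04 and −0.14 over all genes. With the 75th percentile shift these medians were −0.15 and 0.06, beside 0.04 and 0.06 over all genes, and upon Lamin B2 depletion 2 of the 88 then fell and 4 rose, where 3.02% and 1.85% of all genes did.

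The immediate-early targets of SRF are genes switched on within minutes of a stimulus. Of 14 tested, 5 fell in Lamin A/C Kd (EGR1, EGR2, EGR3, JUNB and NR4A1) and none rose, with a median of −0.37. EGR2, a zinc finger factor, read 0.30, 0.01 and −0.15 in Control, −1.95, −1.61 and −1.40 in Lamin A/C Kd, and 0.22, −0.05 and −0.15 in Lamin B2 Kd. Lamin B2 Kd overlapped Control while all Lamin A/C Kd arrays were more than 1 log2 unit lower, and 2 of these 3 were well above background. EGR2 changed by −1.71 (SE 0.18, adjusted p = 0.00145) upon Lamin A/C depletion, against −0.05 (SE 0.18, adjusted p = 0.876) upon Lamin B2 depletion, and the knockdowns differed by −1.66 (adjusted p = 0.000802). With normexp background correction EGR2 changed by −0.66 (adjusted p = 0.00206). EGR2 and EGR3 were also called lower at 2-fold, 2 of the 14, where 1.28% of all genes were. The changes of the EGR2 paralogs EGR3 and EGR1 were −1.11 (adjusted p = 0.0125) and −0.72 (adjusted p = 0.00783). EGR3 was at −0.62 (adjusted p = 0.00396) with normexp, and its adjusted p was 0.0635 with the authors' table and 0.0602 and 0.0504 without Control replicate 1 or replicate 2. Between the knockdowns 7 of the 14 were lower in Lamin A/C Kd at an adjusted p under 0.05 and none higher, where 4.53% and 11.2% of all genes were. With Lamin B2 depleted, none passed the test by limma. At an unadjusted p under 0.05, SRF and MCL1, which encodes a survival factor, were lower, where 20.1% of all genes were. IER3 was higher by that rule (0.49, adjusted p = 0.109), where 4.39% of all genes were. The count of 5 of 14, where 5.78% of all genes fell, was 3 or 4 with any Control or Lamin A/C Kd array left out (1.68 to 3.74% of all genes). It was 9 when Lamin B2 Kd replicate 3 was left out (13.5% of all genes), where SRF fell upon Lamin B2 depletion too.

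Of the targets of MKL1 and SRF in the actin cytoskeleton, 6 of 35 tested fell in Lamin A/C Kd and none rose, with a median of −0.33. They were CYR61, CTGF, FHL2, WDR1, CALD1 and TPM3. Without the genes of the set, 3 of 30 fell, with a median of −0.30. WDR1, which disassembles actin filaments with cofilin, changed by −0.73 (adjusted p = 0.0128), with 3 of its 4 probes passing the test. CALD1, which encodes caldesmon, changed by −0.53 (adjusted p = 0.0334). With Lamin B2 depleted, none of the 35 passed the test by limma, where 3.92% of all genes fell. At an unadjusted p under 0.05, 7 of the 35 were lower, where 20.1% of all genes were. The lowest p belonged to ANKRD25 (KANK2, −0.55, adjusted p = 0.0664) and to ACTN4, an actin crosslinker (−0.83, adjusted p = 0.0719), whose dimmer probe gave −0.01. The count of 6 of 35, where 5.78% of all genes fell, was 1 or 2 with any Control or Lamin A/C Kd array left out (1.68 to 3.74% of all genes) and 15 without Lamin B2 Kd replicate 3 (13.5%). In that last fit SRF was the 1 gene of the 35 that fell upon Lamin B2 depletion, where 4.02% of all genes did. Without Lamin B2 Kd replicate 2, ACTN4 and ACTA2 fell there at an adjusted p under 0.05, where 5.46% of all genes did.

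Among SRF and its cofactors, 3 of 7 tested fell upon Lamin A/C depletion and none upon Lamin B2 depletion, where 5.78% and 3.92% of all genes did. Without the genes of the set, 2 of 4 fell upon Lamin A/C depletion. MKL2 (MRTFB), the paralog of MKL1, read 5.43, 5.39 and 5.44 in Control, 4.73, 4.74 and 4.85 in Lamin A/C Kd, and 5.10, 5.20 and 5.01 in Lamin B2 Kd. The 3 groups did not overlap, with log2 fold changes of −0.65 (SE 0.11, adjusted p = 0.00791) upon Lamin A/C depletion and −0.32 (SE 0.11, adjusted p = 0.118) upon Lamin B2 depletion. ELK4, an ETS partner of SRF at immediate-early promoters, had log2 fold changes of −0.84 (adjusted p = 0.00823) and −0.29 (adjusted p = 0.239). With the mean over its probes ELK4 was at −0.58 (adjusted p = 0.093) in Lamin A/C Kd. FHL2 was the other, and at an unadjusted p under 0.05 3 of the 7 were lower in Lamin B2 Kd, where 20.1% of all genes were. The Lamin A/C Kd count of 3 was 2 with any Control or Lamin A/C Kd array left out (1.68 to 3.74% of all genes). When Lamin B2 Kd replicate 3 was left out, 4 fell upon Lamin A/C depletion, where 13.5% of all genes did, and 1, SRF, upon Lamin B2 depletion, where 4.02% did.

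The YAP and TAZ targets moved in both directions. Of 23 tested, 5 fell in Lamin A/C Kd (CYR61, CTGF, NT5E, THBS1 and BIRC5) and 3 rose (LATS2, IGFBP3 and NUAK2), with a median of −0.10 against −0.04 for all genes. Without the genes of the set, 3 of 20 fell and 3 rose, with a median of −0.06. NT5E, the ecto-nucleotidase CD73, read 4.99, 4.91 and 5.13 in Control, 4.12, 4.12 and 4.26 in Lamin A/C Kd, and 5.36, 5.39 and 5.08 in Lamin B2 Kd. It was lower in Lamin A/C Kd on every array, at −0.84 (adjusted p = 0.00622), and differed between the knockdowns by −1.11 (adjusted p = 0.000936). THBS1, a matricellular glycoprotein, changed by −0.51 (adjusted p = 0.0267). IGFBP3, which binds insulin-like growth factors, rose by 0.51 (adjusted p = 0.0294) upon Lamin A/C depletion and fell, at −0.53 (adjusted p = 0.0436), upon Lamin B2 depletion on its brightest probe. Its other probe gave 0.24 and 0.29 with adjusted p of 0.366 and 0.247. F3, the tissue factor gene, had a log2 fold change of 0.61 in Lamin B2 Kd (adjusted p = 0.052). Over all genes 5.78% fell and 3.15% rose in Lamin A/C Kd. The count of 8 was 1 or 2, all lower, with any Control or Lamin A/C Kd array left out. In those fits 1.68 to 3.74% of all genes fell and 0.964 to 1.36% rose. Without Lamin B2 Kd replicate 3 the count was 13 (9 lower and 4 higher), where 13.5% of all genes were lower and 7.43% higher. Upon Lamin B2 depletion 1 then fell and 1 rose, where 4.02% and 0.714% of all genes did.

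Of 26 tested Hippo pathway components, 3 fell (AMOT, RASSF1 and STK3) and 1 rose in Lamin A/C Kd, where 5.78% of all genes fell and 3.15% rose. LATS2, the kinase that phosphorylates YAP1 and is also its target, read 4.36, 4.47 and 4.43 in Control, 4.91, 4.96 and 5.35 in Lamin A/C Kd, and 4.71, 4.42 and 4.28 in Lamin B2 Kd. It was higher on every Lamin A/C Kd array, at 0.65 (adjusted p = 0.0343), and its dimmer probe gave 0.27 (adjusted p = 0.304). AMOT, an angiomotin that binds YAP1 in the cytoplasm, changed by −0.72 (adjusted p = 0.042), and by −0.45 (adjusted p = 0.0184) with normexp. In Lamin B2 Kd 1 fell: NF2, the merlin tumor suppressor upstream of LATS kinases, read 6.95, 6.94 and 7.05 in Control and 6.46, 6.30 and 6.23 in Lamin B2 Kd. The Lamin B2 Kd arrays were all lower, at −0.65 (adjusted p = 0.0241), while its 3 dimmer probes gave −0.44, −0.21 and 0.05 and did not pass the test. TEAD4, a DNA-binding partner of YAP1, had the next lowest p there (−0.58, adjusted p = 0.176). The Lamin A/C Kd count of 4 was 0 or 1 with any Control or Lamin A/C Kd array left out. In those fits 1.68 to 3.74% of all genes fell and 0.964 to 1.36% rose. It was 2 without Lamin B2 Kd replicate 1 or replicate 2, where 5.33% or 5.55% of all genes fell and 3.01% or 3.07% rose. It was 9 without Lamin B2 Kd replicate 3 (8 lower and 1 higher, where 13.5% and 7.43% of all genes were).

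**Figure D4:**
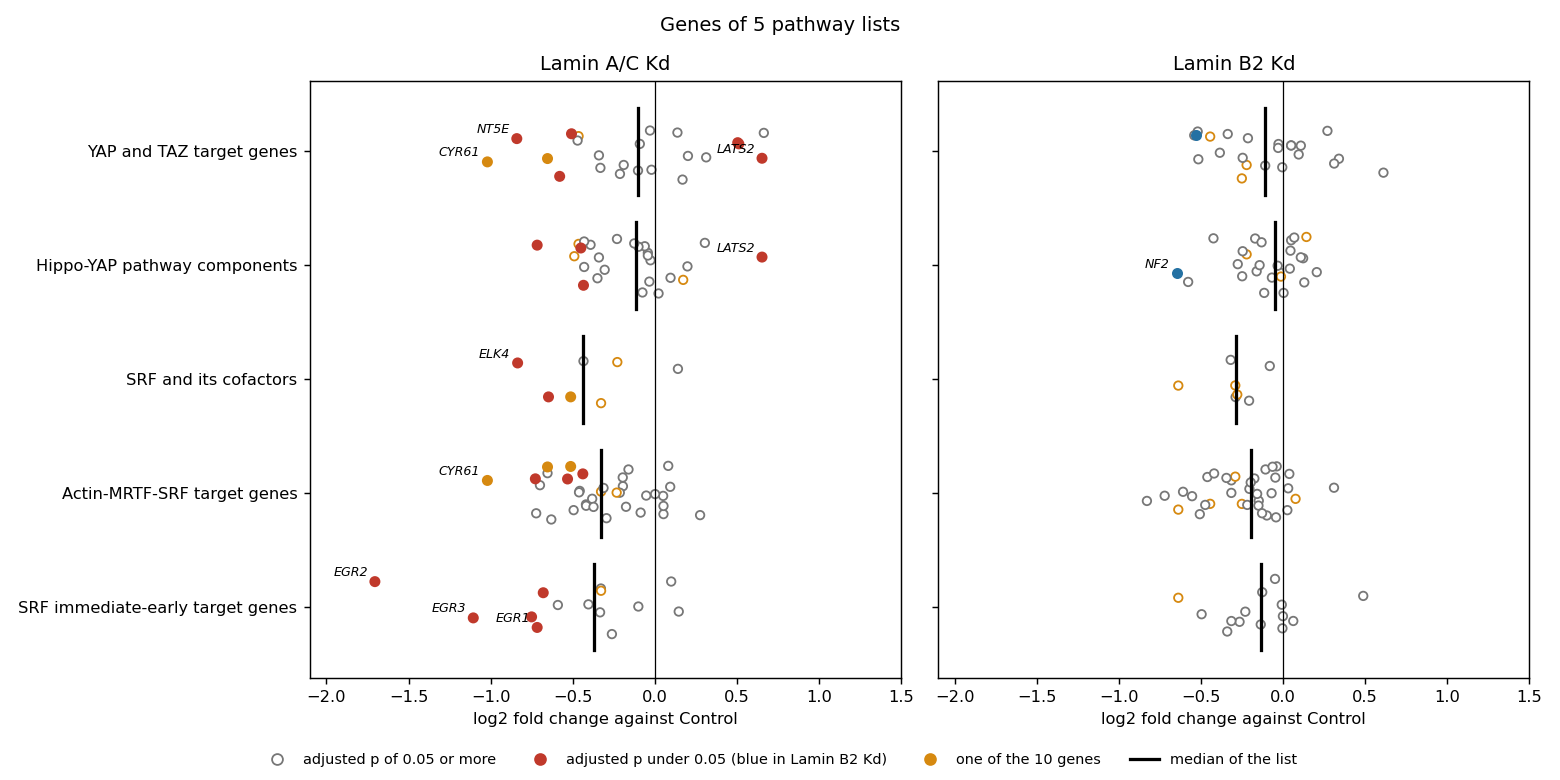
Log2 fold change against Control (horizontal axis) of each tested gene of the 5 lists in either knockdown, filled where the adjusted p was under 0.05, orange for the 10 genes, with a bar at the median of each list. EGR2 at −1.71, EGR3 at −1.11 and CYR61 at −1.02 lie farthest to the left in the Lamin A/C Kd panel.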

How the data were processed

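RNA of 9 DLD1 cultures was measured on 1 array each, 3 per group, and samples were grouped by their labels. Per the file headers, the authors processed the scans with Agilent Feature Extraction, whose processed intensity is background-subtracted and corrected for trends within the array (the submitters' processing notes name version 10.5). A value table from the authors, with log2 signals after a 50th percentile shift and centred on each row's median, served as an alternative. Deposited flags state whether a spot was well above background. Between 65.6 and 74.1% of spots were, none was saturated, and 3 arrays per group limit the precision.

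The log2 intensity minus the array median was averaged over spots of the same probe. Probes entered a test where at least 0.5 of its spots were well above background on all 3 arrays of a compared group. Comparisons used limma 3.58.1 (R 4.3.3) over all 9 arrays, with Benjamini-Hochberg adjustment over all probes tested. The brightest tested probe gave the value of a gene, and a call needed an unadjusted p under 0.05 with a change of 2-fold or more. All p-values measure the spread between cultures.

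The 10 genes, the pathway lists and the markers were chosen with earlier results of these data known. Named were all 10 genes, LMNA and LMNB2, the list genes called in either knockdown, and the 2 with the lowest p of each list and knockdown. JUNB, NR4A1, TPM3, ACTA2, BIRC5, NUAK2, RASSF1 and STK3, which complete a count, were named after their values were seen. Genes with a similar pattern and 1 further pathway list, which the rule also covered, are not reported here. The steps were tested on simulated data. Alternatives were a 75th percentile shift, quantile normalization, normexp with an offset of 50, the authors' table, other detection filters, the replicate number as a block, 2 groups per fit, array weights, the slide as a random block, other call rules and probe rules, and each array left out.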

Additional observations from a re-analysis of the deposited data

Results flagged for a closer look

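CYR61 was the 1 tested gene of the set whose response differed between the knockdowns at an adjusted p under 0.05. Its log2 signal was lower in Lamin A/C Kd than in Lamin B2 Kd by a difference of −0.77 (SE 0.18, limma adjusted p = 0.0207), and all 3 Lamin A/C Kd arrays lay below all 3 Lamin B2 Kd arrays. Without Lamin B2 Kd replicate 3 the difference was −0.92 (adjusted p = 0.00829). It did not pass the test without Lamin A/C Kd replicate 2 (−0.62, adjusted p = 0.0776), without Lamin B2 Kd replicate 1 (−0.62, adjusted p = 0.0561), with only those groups in the fit (adjusted p = 0.0676) or without a detection filter (adjusted p = 0.0546).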

How the results depend on the processing

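For Lamin A/C Kd, 1 gene of the set was called at 2-fold, where 2.2% of all genes were. The count was 0 with a 75th percentile shift (2.05%) or quantile normalization (1.92%), and 0 to 1 when each array was left out (2.16 to 2.44%). It was 2 with the authors' table (1.79%) or without a detection filter (2.09%), where ANKRD1, which was near background, joined CYR61. At 1.5-fold it was 2, and no share of all genes is given for that rule here or below. Genes of the set with an adjusted p under 0.05 numbered 3 (5.78% of all genes fell), 5 with normexp (12.6%) or only the 2 groups compared (12.8%), and 6 with array weights (15.5%). They numbered 1 with the authors' table (1.92%) or no filter (1.93%), and 0 to 5 when each array was left out (1.68 to 13.5%). The median change of −0.47 was −0.39 with the 75th percentile, −0.30 with quantile normalization, −0.35 with the mean over the probes of a gene, and −0.52 to −0.34 when each array was left out. For Lamin B2 Kd, the median of −0.25 was −0.055 with the 75th percentile and −0.02 with quantile normalization. The 2-fold count of 0 there (2.03% of all genes were called) was 1 at 1.5-fold. The adjusted count of 0 (3.92% of all genes fell) was 1, SRF, with normexp (9.81%) or array weights (6.42%). It was 1, again SRF, without Lamin B2 Kd replicate 3 (4.02%) and 0 without any other array (0.144 to 5.46%). Between the knockdowns, the 2-fold count of 0 (4.21% of all genes were called) was 1 at 1.5-fold. The adjusted count of 1 (4.53% of all genes were lower) was 4 with the 75th percentile (10.8%) or array weights (7.32%). It was 2 with quantile normalization (8.89%), normexp (6.18%), the authors' table (2.15%) or the slide as a random block (6.99%). It was 0 with no filter (1.97%) or only the 2 groups compared (2.02%), and 0 to 4 when each array was left out (2.28 to 8.17%).

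The signs of 6 small changes reversed. For Lamin B2 Kd, AMOTL2 was 0.032 when replicate 3 was left out (range −0.389 to 0.032 over the arrays left out), and VCL −0.022 with the mean over probes. WWTR1 there was 0.182 with the 75th percentile, 0.377 with the authors' table, 0.100 with array weights, 0.102 with the slide block, 0.373 with the mean over probes, 0.063 without Control replicate 1, and −0.099 to 0.147 when each array was left out. Between the knockdowns, YAP1 was −0.092 (75th percentile), −0.085 (quantile), −0.042 (normexp), −0.051 (array weights), −0.052 (slide) and −0.031 (mean over probes), and −0.083 to 0.152 when each array was left out. SRF was −0.015 with the mean over probes. MKL1 was −0.071 (75th percentile), −0.055 (quantile), −0.007 (normexp), −0.103 (array weights) and −0.043 (slide), and −0.079 to 0.242 when each array was left out. The cause was not tested.

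With the replicate number as a block, 2, 0 and 1 genes of the set were lower at an adjusted p under 0.05 in Lamin A/C Kd, Lamin B2 Kd and between the knockdowns. In these fits 3%, 0.71% and 3.05% of all genes were lower. FHL2 in Lamin A/C Kd then had an adjusted p of 0.0911. In their deviations from the group means, same-numbered arrays correlated at −0.09 to 0.15 and other pairs across groups at −0.12 to 0.15. This shows no pairing by number but cannot exclude it. In the authors' table the set numbers of the Lamin B2 Kd columns disagreed with the values of the arrays so titled. Those columns were used by group only, and the Lamin B2 Kd numbers are uncertain. Over all alternatives, 803 values of single genes kept their direction and side of the threshold, 88 no longer passed it and 40 newly passed it. Of the list counts, 89 moved by over 1.5 times and 111 did not. The counts by adjusted p and the list counts were chosen after seeing the data. Array signal near background limited ANKRD1 and WWTR1.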
